A study of Mus musculus with 8 samples.

Results

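The fatty acid oxidation genes described here are Cpt1a, Cpt2, Acadm, Acadl, Acadvl, Hadha, Hadhb, Ppara and Pdk4. These 9 genes were named by their role, but with earlier results of these data known. A gene was taken as measured where a probe set of the array names it and no other gene, which held for 8 of the 9 among 17097 such genes, and Hadha was not analysed here. The 8 genes have 12 probe sets, and each gene is given by its brightest set on average, called its main set. Values are log2 RMA values, deposited with 1 decimal, so that 1 unit is a doubling of signal and steps of 0.1 are the finest that can be seen. The level of one probe set is not compared with the level of another.

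The series holds total RNA of isolated islets of Langerhans from mice aged 20 weeks, on 8 Affymetrix arrays with 2 in each of 4 groups. The groups are hIAPP transgenic mice given 4-phenylbutyrate (PBA), hIAPP transgenic mice left untreated, wild-type mice given PBA and wild-type mice left untreated. PBA was given at 1 g per kg and day for 12 weeks from an age of 8 weeks. The labels give the strain background of all groups as FVB/N-Tg(Ins2-IAPP)RFHSoel/J, in which an insulin gene promoter drives human islet amyloid polypeptide (hIAPP) in beta cells, and they do not say whether an array holds RNA of a single animal or of a pool. The p-values therefore measure the spread between these samples, which may in part be technical. PBA is a small fatty acid with a phenyl ring that is used as a chemical chaperone and as a nitrogen scavenger.

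Long-chain fatty acids reach the mitochondrial matrix as carnitine esters. Carnitine palmitoyltransferase 1 on the outer membrane makes the ester, which is the rate-limiting step and is blocked by malonyl-CoA, and carnitine palmitoyltransferase 2 on the inner membrane turns it back into acyl-CoA. Chain-length-specific acyl-CoA dehydrogenases and the trifunctional protein then shorten the chain, and the nuclear receptor PPAR alpha raises transcription of many of these genes when fatty acids are plentiful. PBA itself is cleared by beta-oxidation to phenylacetate. In beta cells glucose raises malonyl-CoA, and fatty acid oxidation is known to fall as glucose metabolism rises.

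The proximal promoters of Cpt1a, Pdk4 and Cpt2 are shown because these were the members whose differences passed the test. They run 5′ to 3′ on the strand of the gene, from 250 bases before to 50 bases after a RefSeq start site, in the mouse build GRCm38.p6. The window of Cpt1a is chr19:3323051-3323350 on the plus strand, that of Pdk4 is chr6:5496229-5496528 on the minus strand, and that of Cpt2 is chr4:107923540-107923839 on the minus strand. Capitals mark AGGTCA, the hexamer that PPAR and other nuclear receptors recognise in pairs, and CCAAT, the core of the box bound by the factor NF-Y, each on either strand.
Cpt1a: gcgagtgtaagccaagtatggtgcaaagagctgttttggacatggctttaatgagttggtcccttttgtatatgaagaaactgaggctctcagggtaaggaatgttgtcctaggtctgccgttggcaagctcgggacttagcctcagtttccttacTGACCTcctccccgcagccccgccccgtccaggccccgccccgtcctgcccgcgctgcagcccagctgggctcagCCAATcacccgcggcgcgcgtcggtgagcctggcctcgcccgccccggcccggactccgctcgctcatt
Pdk4: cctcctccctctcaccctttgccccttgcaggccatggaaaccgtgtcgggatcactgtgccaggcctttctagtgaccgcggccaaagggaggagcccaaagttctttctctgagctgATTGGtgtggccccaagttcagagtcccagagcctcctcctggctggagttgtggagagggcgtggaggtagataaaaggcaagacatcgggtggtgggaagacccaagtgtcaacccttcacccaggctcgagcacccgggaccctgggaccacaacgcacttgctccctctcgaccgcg
Cpt2: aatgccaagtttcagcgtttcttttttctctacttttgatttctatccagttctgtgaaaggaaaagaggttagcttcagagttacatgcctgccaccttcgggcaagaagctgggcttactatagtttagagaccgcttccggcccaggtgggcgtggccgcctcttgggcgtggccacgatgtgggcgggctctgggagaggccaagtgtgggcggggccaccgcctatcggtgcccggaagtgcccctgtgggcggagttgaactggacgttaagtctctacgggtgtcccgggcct
The window of Cpt1a holds AGGTCA once, on the opposite strand 94 bases before the start, and CCAAT once, 19 bases before the start. The window of Pdk4 holds CCAAT once, on the opposite strand 131 bases before the start, and no AGGTCA. The window of Cpt2 holds neither. Of the 9 members' windows, 3 hold AGGTCA (Cpt1a, Acadm and Acadvl), against 16.3% of the 32851 RefSeq mouse windows of the same length. The paired form AGGTCANAGGTCA, searched on both strands, is in none of the 9 windows and in 0.0396% of all windows. CCAAT was searched for after the sequences had been read, and it is in 2 members' windows and in 37.4% of all windows. The windows of Hadha and Hadhb, which are neighbours transcribed away from each other, share 228 bases. These matches describe the letters of short windows and nothing about binding.

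The arrays carried RNA of the labelled tissue and also RNA of acinar cells, whose markers were well above the non-specific controls. The median level of 18 beta cell markers lay between 10.75 and 11.50, and Ins2, an insulin gene, read 14.0 or 14.1 on all 8 arrays. Pairs of arrays of 1 group correlated at 0.993 to 0.994 over all genes, and pairs of arrays of different groups at 0.972 to 0.994. Wild-type PBA replicate 1 stood apart in the spiked hybridisation controls, with a median of 7.10 over 9 control sets against 9.80 to 10.20 on the other 7 arrays. The PBA-treated hIAPP replicate 1 stood apart in acinar markers, with a median over 23 genes of 8.20 against 10.30 to 12.40 on the other 7 arrays. Without these 2 arrays no gene passed for PBA in hIAPP islets, for PBA in wild-type islets, for the interaction or for PBA averaged, where limma counted 3362, 1647, 2554 and 3177 genes at an unadjusted p under 0.05. Every PBA call below was therefore lost in that fit, which leaves 1 array in each PBA group. Probe sets for non-specific binding had a median of 3.10 and a 95th percentile of 4.68.

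Cpt1a, the liver-type carnitine palmitoyltransferase 1, was higher in untreated hIAPP islets than in untreated wild-type islets and lower again in hIAPP islets under PBA. Its log2 values were 8.6 and 8.6 in PBA-treated hIAPP islets, 9.3 and 9.4 in untreated hIAPP islets, 8.4 and 8.4 in PBA-treated wild-type islets, and 8.7 and 8.7 in untreated wild-type islets. The untreated hIAPP arrays were the highest of the 8, the PBA-treated wild-type arrays the lowest, and no pair of groups overlapped. Without PBA the transgene raised Cpt1a by 0.65 on the log2 scale (SE 0.09), which is 1.57-fold, with an adjusted p of 0.0050. Here and below the test is limma's two-sided moderated test on all 8 arrays, adjusted by Benjamini-Hochberg over all 17097 genes, with a threshold of 0.05. Within hIAPP islets PBA lowered Cpt1a by a log2 change of -0.75 (SE 0.09), to 0.59 of the untreated level, with an adjusted p of 0.0047. These comparisons share the untreated hIAPP arrays, so a high reading there moves both.

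In wild-type islets the change of Cpt1a with PBA was -0.30 (SE 0.09; 95% interval -0.52 to -0.08). Both PBA arrays lay below both untreated arrays, but the adjusted p was 0.3213. Averaged over both genotypes the PBA effect on Cpt1a was -0.53 (SE 0.07), and it passed with an adjusted p of 0.0082. The PBA effect in hIAPP islets minus that in wild-type islets was -0.45 (SE 0.13; adjusted p = 0.1436), so a difference between the genotypes was not shown. Leaving out each of the 8 arrays in turn kept Cpt1a past the threshold in all 8 fits, for the transgene, for PBA in hIAPP islets and for PBA averaged. Each of these calls came close to the threshold in some of these fits, which leave a group with a single array. The changes ran from 0.60 to 0.70 for the transgene, from -0.80 to -0.70 for PBA in hIAPP islets and from -0.55 to -0.50 for PBA averaged. When both arrays that stand apart were left out, the change with PBA in hIAPP islets was still -0.75 but its adjusted p was 0.1157, and the averaged change of -0.53 had an adjusted p of 0.1537. The call for PBA in hIAPP islets was also lost with only the arrays of the groups compared (-0.75; adjusted p = 0.0673) and with the median of the acinar markers as a covariate (-0.72; adjusted p = 0.1108). With that covariate the averaged call was lost too (-0.51; adjusted p = 0.0720). Both arrays of 3 groups read the same rounded Cpt1a value, so part of the spread between replicates is below what the deposited decimals show.

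Cpt2, the inner-membrane partner of Cpt1a, differed in the opposite direction. Its log2 values were 9.0 and 9.0 in PBA-treated hIAPP islets, 8.8 and 8.6 in untreated hIAPP islets, 9.1 and 8.9 in PBA-treated wild-type islets, and 9.1 and 9.3 in untreated wild-type islets. The untreated hIAPP arrays were the lowest of the 8. Without PBA the transgene lowered Cpt2 by a log2 change of -0.50 (SE 0.13), to 0.71 of the wild-type level, with an adjusted p of 0.0482, close to the threshold. It did not pass in any of the 8 fits that left out an array, where the change ran between -0.60 and -0.40 and the adjusted p reached 0.2345. With PBA in hIAPP islets Cpt2 had a change of 0.30 (SE 0.13; adjusted p = 0.2156), and in wild-type islets of -0.20 (SE 0.13; adjusted p = 0.6168). Under PBA both genotypes averaged 9.0, a change of 0.00 with a 95% interval of -0.30 to 0.30.

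**Figure D1:**
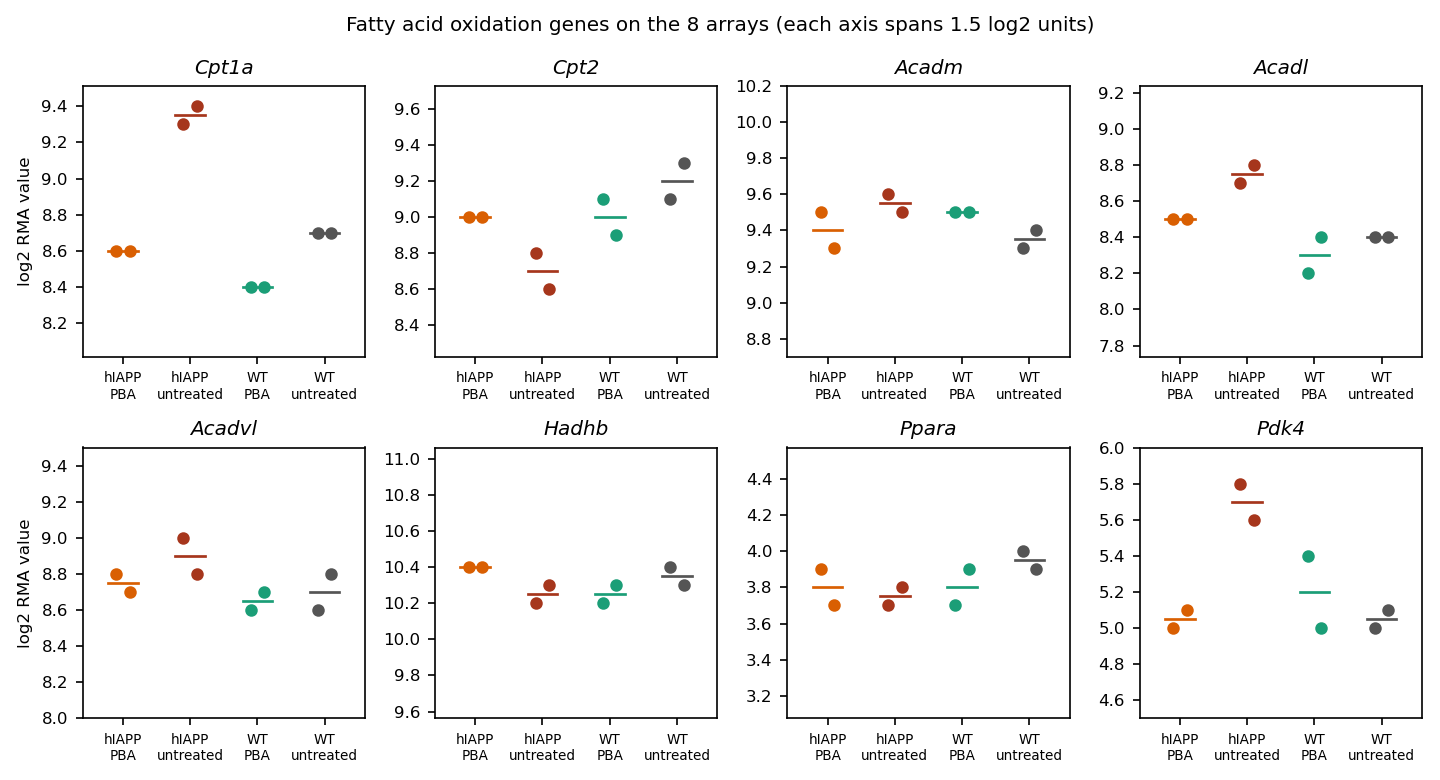
Log2 RMA values of the 8 measured fatty acid oxidation genes on the 8 arrays, with groups on the horizontal axis, a point for each array and a bar for the mean of 2 arrays. Each vertical axis spans 1.5 log2 units. The untreated hIAPP arrays are the highest for Cpt1a (9.3 and 9.4), Acadl (8.7 and 8.8) and Pdk4 (5.8 and 5.6), and the lowest for Cpt2 (8.8 and 8.6).

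The acyl-CoA dehydrogenases take the first oxidative step, and none of the 3 passed the test in any of the 6 comparisons. Acadl, the long-chain enzyme, had log2 values of 8.5 and 8.5 in PBA-treated hIAPP islets, 8.7 and 8.8 in untreated hIAPP islets, 8.2 and 8.4 in PBA-treated wild-type islets, and 8.4 and 8.4 in untreated wild-type islets. The untreated hIAPP arrays were again above the other 6, with a change of 0.35 (SE 0.11; 95% interval 0.10 to 0.60) against untreated wild type and an adjusted p of 0.0855. Leaving out either PBA-treated wild-type array carried this change of 0.35 past the threshold, with an adjusted p of 0.0423, and no other left-out array did. It also passed with a filter on low values (adjusted p = 0.0440) and with a trended, robust prior (adjusted p = 0.0283), which made 4 members called in that comparison. With PBA in hIAPP islets Acadl had a change of -0.25 (SE 0.11; adjusted p = 0.2171). Its other probe set read between 3.1 and 3.5, under the controls' 95th percentile of 4.68 on every array, and says little about the gene.

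Acadvl, the very-long-chain enzyme of the inner membrane, had log2 values of 8.8 and 8.7 in PBA-treated hIAPP islets, 9.0 and 8.8 in untreated hIAPP islets, 8.6 and 8.7 in PBA-treated wild-type islets, and 8.6 and 8.8 in untreated wild-type islets. The groups overlapped in all 4 comparisons of 2 groups, and the transgene difference without PBA was 0.20 with a 95% interval of -0.09 to 0.49. Acadm, the medium-chain enzyme, had log2 values of 9.5 and 9.3 in PBA-treated hIAPP islets, 9.6 and 9.5 in untreated hIAPP islets, 9.5 and 9.5 in PBA-treated wild-type islets, and 9.3 and 9.4 in untreated wild-type islets. All 8 Acadm values lay within 0.3 log2 units. Its change was 0.20 (95% interval -0.06 to 0.46) with the transgene without PBA, -0.15 (-0.41 to 0.11) with PBA in hIAPP islets and 0.15 (-0.11 to 0.41) with PBA in wild-type islets. These intervals leave room for changes of up to 0.46, so they do not show that Acadm was the same in all groups.

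Hadhb encodes the beta subunit of the trifunctional protein, the thiolase that releases acetyl-CoA, and its alpha subunit partner is Hadha. Hadhb varied least of the members, with log2 values of 10.4 and 10.4 in PBA-treated hIAPP islets, 10.2 and 10.3 in untreated hIAPP islets, 10.2 and 10.3 in PBA-treated wild-type islets, and 10.4 and 10.3 in untreated wild-type islets. Its changes lay between -0.10 and 0.15 in the 4 comparisons of 2 groups, and none passed the test. The widest 95% interval bound among them was 0.38. A second Hadhb probe set read between 5.3 and 6.0 on the 8 arrays, and its change with PBA in hIAPP islets was -0.45 (SE 0.21) where that of the main set was 0.15 (SE 0.11), so the sets differ in sign. Neither change passed over all 45037 probe sets, with adjusted p-values of 0.3034 for the second set and 0.5358 for the main set.

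Pdk4, a kinase that switches off pyruvate dehydrogenase and so spares glucose when fatty acids are burnt, followed Cpt1a in hIAPP islets. Its log2 values were 5.0 and 5.1 in PBA-treated hIAPP islets, 5.8 and 5.6 in untreated hIAPP islets, 5.4 and 5.0 in PBA-treated wild-type islets, and 5.0 and 5.1 in untreated wild-type islets. The untreated hIAPP arrays were above the other 6, and the other groups overlapped one another. All 8 values lay above the controls' 95th percentile of 4.68, but the lowest, 5.0, was not far from it. Without PBA the transgene raised Pdk4 by 0.65 (SE 0.15; adjusted p = 0.0362), and PBA in hIAPP islets lowered it by a log2 change of -0.65 (SE 0.15; adjusted p = 0.0444). In wild-type islets the change with PBA was 0.15 (SE 0.15; adjusted p = 0.7784). The PBA effect in hIAPP islets minus that in wild-type islets was -0.80 (SE 0.21), and it did not pass (adjusted p = 0.1243). Of the 8 fits that left out an array, both calls were kept in the 2 without a PBA-treated wild-type array. Without any one of the other 6 arrays they were lost, with adjusted p-values of up to 0.2055 for the transgene and up to 0.2295 for PBA. Without both arrays that stand apart the PBA change of Pdk4 was -0.60 (adjusted p = 0.1623).

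Ppara, the receptor PPAR alpha, was not well above background on any array. Its main probe set read 3.9 and 3.7 in PBA-treated hIAPP islets, 3.7 and 3.8 in untreated hIAPP islets, 3.7 and 3.9 in PBA-treated wild-type islets, and 4.0 and 3.9 in untreated wild-type islets. All 3 of its probe sets stayed under 4.68, the upper range of the non-specific controls, on all 8 arrays. The sets also disagreed, since the transgene difference without PBA was -0.20 in the main set, -0.30 in the second and 0.40 in the third. None passed the test, and Ppara counts as not well above background in all 4 groups.

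Over the members, 3 of 8 passed for the transgene without PBA. Of these, 2 were higher (Cpt1a and Pdk4) and 1 was lower (Cpt2), against 7.77% of all genes called higher and 3.19% called lower. The median change of the 8 was 0.20, and that of all genes was -0.05. For PBA in hIAPP islets 2 of 8 passed, both lower, against 6.32% of all genes called lower and 1.78% called higher, and the median change was -0.15 against 0.00 for all genes. When each array was centred on its mean over all genes, 532 genes were called higher and 1058 lower in this comparison, against 304 higher and 1080 lower as deposited. With 8 members, a single gene moves a share by more than these backgrounds.

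For PBA in wild-type islets none of the 8 passed, against 0.146% of all genes called higher and 0.146% called lower. At an unadjusted p under 0.05, 1800 of all genes and 1 member, Cpt1a, were counted. For the transgene under PBA none of the 8 passed, against 0.322% called higher and 0.0994% called lower, and their changes lay between -0.15 and 0.20. At an unadjusted p under 0.05 in limma, 2072 of all genes and 0 members were counted there. For the interaction none passed, against 0.269% called higher and 1.69% called lower. At an unadjusted p under 0.05 it counted 2778 of all genes and 3 members, Cpt1a, Cpt2 and Pdk4, with p-values of 0.0103, 0.0262 and 0.0069 from limma. For PBA averaged over genotypes 1 of 8 passed, Cpt1a, which was lower, against 4.28% called lower and 1.29% called higher.

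**Figure D2:**
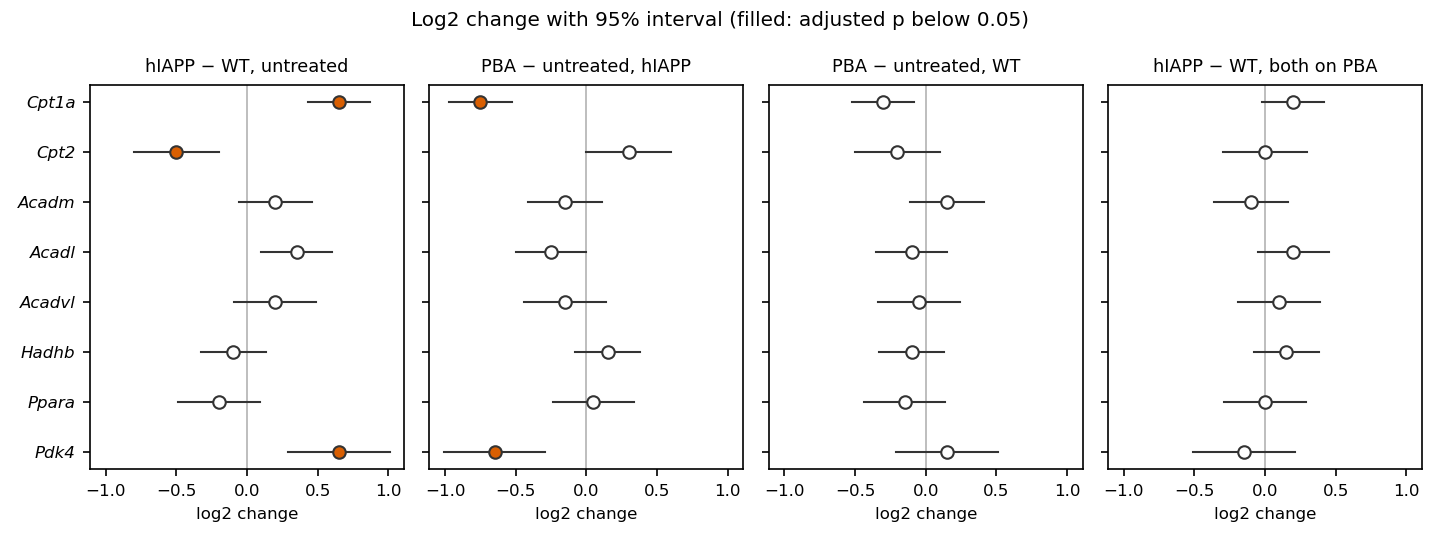
Log2 change with its 95% interval (horizontal axis) for each of the 8 measured members (vertical axis) in 4 comparisons, with filled points where the adjusted p was below 0.05. Filled points are Cpt1a, Cpt2 and Pdk4 for the transgene without PBA and Cpt1a and Pdk4 for PBA in hIAPP islets, and none is filled in the other 2 panels.

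The members did not move as a block over the 8 arrays. As a description over 8 arrays that share their groups, Pearson's r was 0.91 between Cpt1a and Acadl and 0.77 between Cpt1a and Pdk4, but -0.68 between Cpt1a and Cpt2 and -0.79 between Cpt2 and Acadl. Hadhb had an r of -0.25 with Cpt1a. Among all genes tested, those with the profile most like Cpt1a were Bhlhe40, a transcriptional repressor, with an r of 0.993, Slc22a5, the carnitine transporter of the plasma membrane, with 0.991, and Blnk, an adaptor of B cell receptor signalling, with 0.989. Bhlhe40 read 7.9 and 8.1 in PBA-treated hIAPP islets, 9.1 and 9.2 in untreated hIAPP islets, 7.6 and 7.6 in PBA-treated wild-type islets, and 8.1 and 8.0 in untreated wild-type islets. The profiles most like Pdk4 were those of Elk4 (r of 0.986), Kank4 (0.980) and Tsc22d3, a glucocorticoid-induced gene (0.979). Those most like Acadl were Sf3b5 (0.990), Aoc3 (0.987) and Podxl (0.986), and those most like Cpt2 were Mapk15 (0.980), Zfp454 (0.975) and Smim13 (0.972). These genes were picked as the highest of 17097 correlations over 4 groups.

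Around the members, 8 further lists of 100 genes on fatty acid and pyruvate metabolism had 86 measured. Without PBA 9 of the 86 (10.5%) were higher with the transgene and 1 (1.16%) was lower, against 7.77% and 3.19% of all genes. With PBA in hIAPP islets 1 (1.16%) was higher and 6 (6.98%) were lower, against 1.78% and 6.32% of all genes. These shares are near those of all genes. None passed in limma with PBA in wild-type islets or with the transgene under PBA, where 13 and 14 of the 86 had an unadjusted p under 0.05. In the interaction 0 passed as higher and 3 (3.49%) as lower, against 0.269% and 1.69% of all genes. For PBA averaged 2 (2.33%) passed as higher and 5 (5.81%) as lower, against 1.29% and 4.28% of all genes. The median change of the 86 was -0.05 for the transgene without PBA, equal to that of all genes, and 0.00 for PBA in hIAPP islets.

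The enzymes of the beta-oxidation spiral outside the member list did not pass in any comparison, 0 of 15 mitochondrial and 0 of 13 peroxisomal genes. At an unadjusted p under 0.05 in limma, 2 mitochondrial and 2 peroxisomal genes were counted for the transgene without PBA, and 4 mitochondrial and 2 peroxisomal genes for PBA in hIAPP islets. The mitochondrial gene with the smallest p was Acad11, a dehydrogenase of very long chains, with 9.3 and 9.2 in PBA-treated hIAPP islets, 8.8 and 8.9 in untreated hIAPP islets, 9.1 and 9.2 in PBA-treated wild-type islets and 9.2 and 9.1 in untreated wild-type islets. Its change with PBA in hIAPP islets was 0.40 (SE 0.10; adjusted p = 0.0615). Among peroxisomal genes it was Ehhadh, the bifunctional enzyme, whose averaged PBA effect was 0.30 (SE 0.09; adjusted p = 0.1035). Of 11 genes of pyruvate dehydrogenase, its kinases and its phosphatases none passed, with 2 and 3 at an unadjusted p under 0.05 in the same comparisons. Pdk1, another of its kinases, had a change of 0.75 (SE 0.21; adjusted p = 0.0697) with the transgene without PBA and of -0.85 (SE 0.21; adjusted p = 0.0565) with PBA in hIAPP islets.

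In the list of activation and the carnitine shuttle, with 13 measured genes, Acsl3 and Acacb passed. For the transgene without PBA 1 was lower, against 3.19% of all genes. For PBA in hIAPP islets 1 was higher and 1 lower, against 1.78% and 6.32%. Averaged over genotypes 1 was higher and 1 lower, against 1.29% and 4.28%. Acsl3, a long-chain acyl-CoA synthetase of the endoplasmic reticulum and lipid droplets, read 7.2 and 6.8 in PBA-treated hIAPP islets, 6.0 and 6.1 in untreated hIAPP islets, 7.8 and 7.4 in PBA-treated wild-type islets, and 6.7 and 6.8 in untreated wild-type islets. It was lower with the transgene by a log2 change of -0.70 (SE 0.18; adjusted p = 0.0473), and higher with PBA in hIAPP islets by 0.95 (SE 0.18; adjusted p = 0.0197) and over both genotypes by 0.90 (SE 0.13; adjusted p = 0.0111). In wild-type islets the change was 0.85 (SE 0.18; adjusted p = 0.1543), and the genotypes' PBA effects differed by 0.10 (SE 0.25). The transgene call was lost without any one array, the call in hIAPP islets was kept in the 2 such fits without a PBA-treated wild-type array, and the averaged one in the 1 without PBA-treated hIAPP replicate 2. Without both arrays that stand apart the change in hIAPP islets was 0.75 (adjusted p = 0.1157) and the averaged one 0.70 (adjusted p = 0.1537). Acacb, the acetyl-CoA carboxylase whose malonyl-CoA blocks carnitine palmitoyltransferase 1, had a change of -0.60 (SE 0.12; adjusted p = 0.0269) with PBA in hIAPP islets, but it read between 3.4 and 4.2, below the 95th percentile of the controls, and the call was lost without any one array.

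None of the 4 carriers in this list passed, and they did not share a direction. Slc25a20, the carnitine-acylcarnitine carrier of the inner membrane, was picked after its values were seen. It read 8.2 and 8.3 in PBA-treated hIAPP islets, 8.7 and 8.8 in untreated hIAPP islets, 8.4 and 8.1 in PBA-treated wild-type islets, and 8.4 and 8.2 in untreated wild-type islets. Its change was 0.45 (SE 0.13; adjusted p = 0.0823) for the transgene without PBA and -0.50 (SE 0.13; adjusted p = 0.0698) for PBA in hIAPP islets. Slc22a5 had a change of 0.35 (SE 0.09; adjusted p = 0.0549) and of -0.35 (SE 0.09; adjusted p = 0.0660) in the same comparisons. The fatty acid transport proteins Slc27a2 and Slc27a4 both had a change of -0.05 for the transgene, and of 0.35 and 0.00 for PBA in hIAPP islets. The median change of the 13 genes was -0.05 in both comparisons.

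The PPAR target list held most of the called genes. Of its 16 measured genes 7 were higher with the transgene without PBA, and these were Plin2, Fgf21, Acot1, Vnn1, Fabp3, Cd36 and Txnip, against 7.77% of all genes called higher. Of these, Fgf21 and Acot1 read between 3.1 and 4.2, under the controls' 95th percentile on all 8 arrays, so they were not well above background. With PBA in hIAPP islets 4 were lower (Plin2, Fgf21, Cd36 and Txnip), against 6.32% of all genes. In the average over genotypes 4 were lower (Angptl4, Plin2, Cd36 and Txnip), against 4.28%. Angptl4 read 4.9 and 4.7 in PBA-treated hIAPP islets and 4.5 and 4.5 in PBA-treated wild-type islets, near the controls' 95th percentile. Its untreated wild-type arrays lay far apart, at 6.6 and 5.0. The list's median change was 0.45 for the transgene and -0.30 for PBA in hIAPP islets. Fgf21, Acot1, Fabp3 and Angptl4 are named to complete these counts and were chosen after their values were seen. The list was put together from textbook roles, mostly known in liver, but with earlier results of these data known. Several of its genes have other known drivers, among them Txnip, which glucose raises through the factor ChREBP.

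Cd36, a fatty acid uptake receptor also abundant on macrophages and capillary endothelium, read 5.8 and 5.3 in PBA-treated hIAPP islets, 8.4 and 8.2 in untreated hIAPP islets, 5.7 and 5.6 in PBA-treated wild-type islets, and 7.0 and 6.8 in untreated wild-type islets. The PBA-treated arrays of both genotypes overlapped at the low end, and the untreated hIAPP arrays were the highest. Its change was 1.40 (SE 0.18; adjusted p = 0.0034) with the transgene without PBA, -2.75 (SE 0.18; adjusted p = 0.0011) with PBA in hIAPP islets and -1.25 (SE 0.18; adjusted p = 0.0520) with PBA in wild-type islets. Plin2, the coat protein of lipid droplets, read 8.2 and 8.2 in PBA-treated hIAPP islets, 9.7 and 9.4 in untreated hIAPP islets, 7.7 and 7.9 in PBA-treated wild-type islets, and 8.6 and 8.3 in untreated wild-type islets. Its change was 1.10 (SE 0.15; adjusted p = 0.0045) with the transgene without PBA and -1.35 (SE 0.15; adjusted p = 0.0036) with PBA in hIAPP islets, and -0.65 (SE 0.15; adjusted p = 0.2123) with PBA in wild-type islets. Both transgene calls were lost without untreated hIAPP replicate 1 or untreated wild-type replicate 2, with adjusted p-values of up to 0.0597 for Cd36 and 0.0577 for Plin2. The Plin2 call for PBA in hIAPP islets was lost without PBA-treated hIAPP replicate 1 or untreated hIAPP replicate 1, with an adjusted p of up to 0.0585. Without both arrays that stand apart the change with PBA in hIAPP islets was -1.35 for Plin2 (adjusted p = 0.1411), and the Cd36 change had an adjusted p of 0.1157. Vnn1, a pantetheinase, passed for the transgene with a change of 1.45 (SE 0.23; adjusted p = 0.0076), and its call was lost without any one of the 4 untreated arrays.

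Of 11 PPAR receptors and coactivators 1 passed in any comparison, against 7.77% of all genes called higher with the transgene without PBA. This was Nrip1, a corepressor of nuclear receptors, higher in that comparison. It read 7.2 and 7.4 in PBA-treated hIAPP islets, 7.7 and 7.7 in untreated hIAPP islets, 7.2 and 7.3 in PBA-treated wild-type islets, and 7.2 and 7.0 in untreated wild-type islets. Its change was 0.60 (SE 0.12; adjusted p = 0.0195) for the transgene without PBA, a call lost without any one of the 4 untreated arrays, and -0.40 (SE 0.12; adjusted p = 0.0912) for PBA in hIAPP islets.

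**Figure D3:**
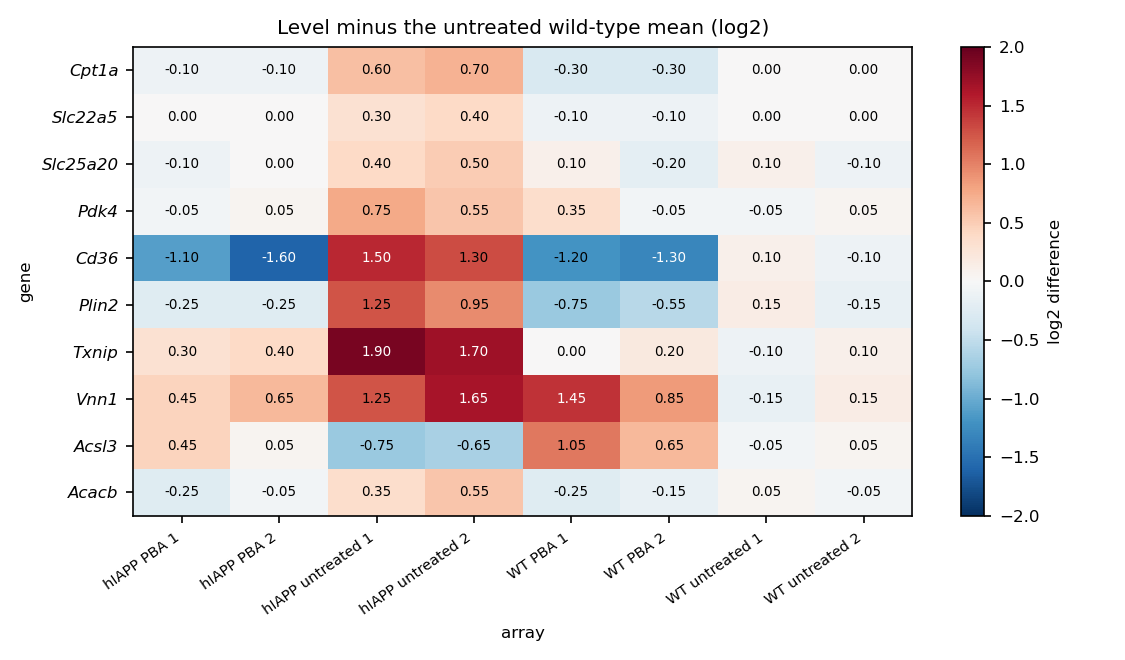
Log2 level of 10 genes (rows) on each of the 8 arrays (columns) minus the mean of the 2 untreated wild-type arrays, printed in each cell and shown as colour, red for higher and blue for lower, with colour capped at 2 units. Cpt1a, Slc22a5, Slc25a20, Pdk4, Cd36, Plin2 and Txnip are highest in the 2 untreated hIAPP columns, and Acsl3 is lowest there. Acacb, near background, is also highest there. The genes shown are a selection, which leaves out Cpt2, Acadm and Hadhb among the members and the carriers Slc27a2 and Slc27a4.

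The median levels of macrophage, stellate and endothelial markers were highest on both untreated hIAPP arrays, where Cpt1a was also highest. Those of acinar and fat cell markers were not. The median of 19 macrophage markers was 7.10 and 6.80 in PBA-treated hIAPP islets, 8.60 and 8.30 in untreated hIAPP islets, 5.80 and 5.60 in PBA-treated wild-type islets, and 6.10 and 6.30 in untreated wild-type islets. The groups stood in an order close to that of Cpt1a, and both were lowest in PBA-treated wild-type islets, but macrophage markers in PBA-treated hIAPP islets stayed above untreated wild type where Cpt1a did not. Of the 19, 17 were higher with the transgene without PBA, 15 fell with PBA in hIAPP islets and 9 were still higher with the transgene under PBA. The shares of all genes called in these directions were 7.77%, 6.32% and 0.322%. Of 19 stellate and fibroblast markers 16 were higher and 15 lower in the first 2 of these comparisons, and of 14 endothelial markers 9 were higher and 10 lower. None of these PBA calls passed in the fit without both arrays that stand apart. The stellate median was 7.60 and 7.60 in PBA-treated hIAPP islets, 9.20 and 9.10 in untreated hIAPP islets, 6.80 and 6.10 in PBA-treated wild-type islets, and 6.80 and 6.20 in untreated wild-type islets. The endothelial median was 7.05 and 7.25 in PBA-treated hIAPP islets, 8.45 and 8.20 in untreated hIAPP islets, 6.85 and 7.25 in PBA-treated wild-type islets, and 7.35 and 7.25 in untreated wild-type islets.

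Beta cell markers ran the other way. With the transgene without PBA 4 of 18 were lower, against 3.19% of all genes, and with PBA in hIAPP islets 5 of 18 were higher, against 1.78%. Their median was 11.35 and 11.35 in PBA-treated hIAPP islets, 10.75 and 10.75 in untreated hIAPP islets, 11.30 and 11.45 in PBA-treated wild-type islets, and 11.40 and 11.50 in untreated wild-type islets. Of 10 fat cell markers only Fabp4, which macrophages and endothelium also carry, passed for the transgene or for PBA in hIAPP islets. It was higher in the first comparison and lower in the second, against 7.77% and 6.32% of all genes. The fat cell hormones Adipoq and Lep read between 2.8 and 3.6 on all arrays, below the 95th percentile of the controls. Of 23 acinar markers none passed with the transgene without PBA. In limma 0 of them had an unadjusted p under 0.05, against 4293 of 17097 genes. With PBA in hIAPP islets 2 were called lower, against 6.32% of all genes. At an unadjusted p under 0.05 in limma 20 were counted there, against 3930 of 17097 genes. The median change of the list was -2.25, against 0.00 for all genes. In whole islets, fewer cells of a type and less RNA per cell cannot be told apart. The part of macrophages, stellate cells and endothelium in the Cpt1a, Pdk4, Acadl and Cpt2 differences was not tested.

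**Figure D4:**
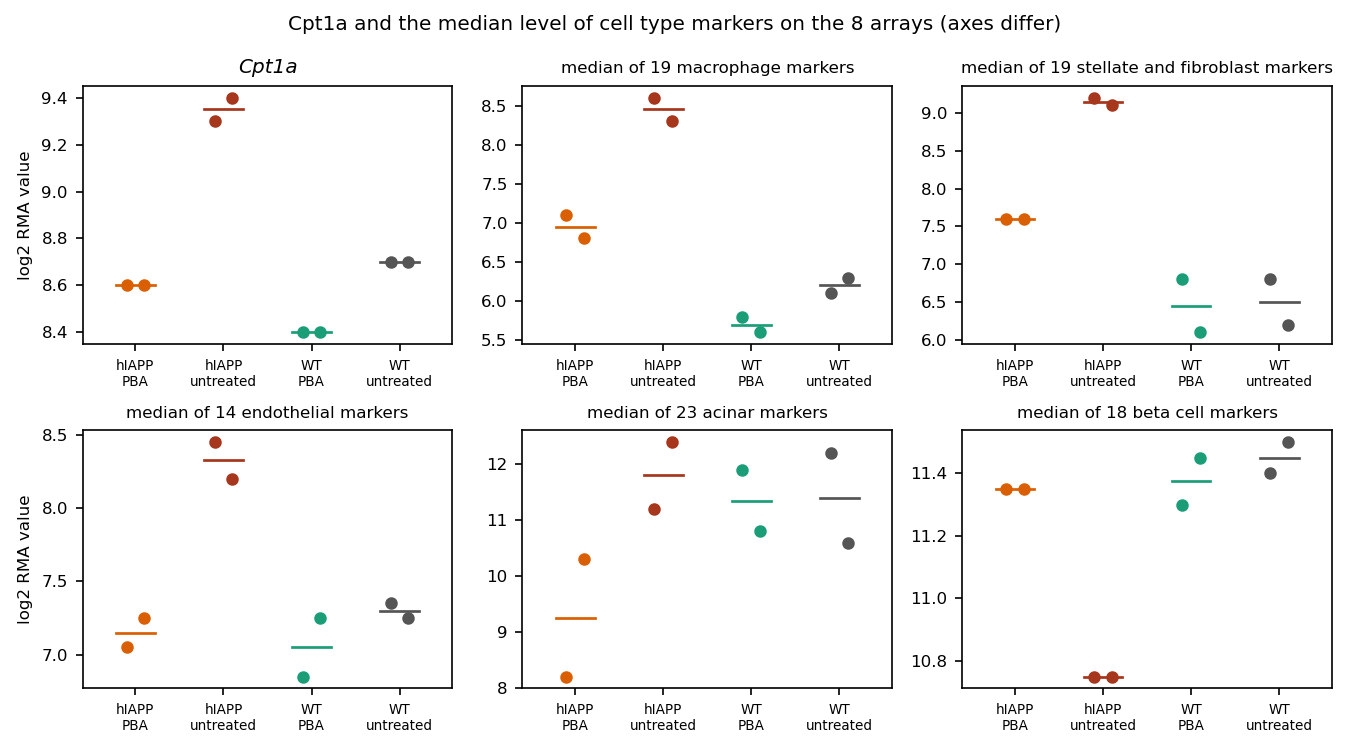
Log2 RMA value of Cpt1a and median log2 value of 5 cell type marker lists on the 8 arrays, with groups on the horizontal axis, a point for each array and a bar for the mean of 2 arrays. The vertical axes differ. Macrophage, stellate and endothelial medians are highest and the beta cell median lowest (10.75 and 10.75) in untreated hIAPP islets, and acinar medians spread widely within groups.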

How the data were processed

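The authors hybridised islet RNA to 8 arrays and deposited 1 log2 value per probe set and array, made with RMA (background correction, quantile normalisation and summary of probes) in the affy package, per the submitters' processing notes, which give no version. The values were used as deposited. Of 45037 non-control probe sets, 28898 name 1 gene, 551 several and 15588 none, and the brightest set of each of 17097 genes was tested. Group means were fitted over all 8 arrays with limma 3.58.1 in R 4.3.3 (4 residual and 3.27 prior degrees of freedom), and 6 comparisons were made. Scripts were tested on simulated data. Tables and plots used pandas 2.3.3 and matplotlib 3.10.9 in Python 3.11.15. The members and lists were chosen with earlier results of these data known. All members are named, and of each further list up to 4 called genes with the smallest p, or else the 1 gene with the smallest p. For members spanning 0.5 log2 units, the 3 genes of highest correlation are named. Promoters are RefSeq sequences of GRCm38.p6, matched by symbol for all 9 members. Alternatives left out arrays, changed the arrays fitted, the filter, the probe sets, the prior or the centring, or added a replicate block or an acinar covariate. Precision is limited by 2 arrays per group, rounding and, for dim genes, background.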

Additional observations from a re-analysis of the deposited data

Results flagged for a closer look

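The PBA effect differed between the genotypes for 3 PPAR target genes, by limma's interaction term on all 8 arrays, two-sided and adjusted by Benjamini-Hochberg over 17097 genes. For Cd36 the effect in hIAPP islets minus that in wild-type islets was -1.50 (SE 0.25; adjusted p = 0.0368), from changes of -2.75 in hIAPP islets and -1.25 in wild-type islets. For Txnip, a thioredoxin-binding protein, it was -1.55 (SE 0.18; adjusted p = 0.0169), from changes of -1.45 in hIAPP islets and 0.10 in wild-type islets. Txnip read 10.4 and 10.5 in PBA-treated hIAPP islets, 12.0 and 11.8 in untreated hIAPP islets, 10.1 and 10.3 in PBA-treated wild-type islets, and 10.0 and 10.2 in untreated wild-type islets. For Vnn1 it was -2.05 (SE 0.32; adjusted p = 0.0311), from changes of -0.90 in hIAPP islets and 1.15 in wild-type islets, neither of which passed by itself. Vnn1 read 5.7 and 5.9 in PBA-treated hIAPP islets, 6.5 and 6.9 in untreated hIAPP islets, 6.7 and 6.1 in PBA-treated wild-type islets, and 5.1 and 5.4 in untreated wild-type islets. None of the 3 passed in any of the 8 fits that left out an array, with adjusted p-values of up to 0.1938 for Cd36, 0.1150 for Txnip and 0.1626 for Vnn1. No member differed between the genotypes in its PBA effect past the threshold.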

How the results depend on the processing

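No called change of a member or named gene reversed under an alternative. For the transgene without PBA the number of members called was 3 as reported. It was 1 (Cpt1a) with only the arrays of the groups compared, with the replicate block, without both PBA replicate 1 arrays, with all probe sets tested and with the acinar covariate, and 1 to 3 without 1 array. It was 4, with Acadl added, with the filter on low values and with the trended, robust prior, and 3 with the mean of probe sets or centred arrays. For PBA in hIAPP islets it was 2 as reported, 0 with only the arrays compared, without both PBA replicate 1 arrays or with the acinar covariate, 1 with the replicate block or all probe sets tested, and 1 to 2 without 1 array. For PBA averaged it was 1 as reported and 0 without both PBA replicate 1 arrays or with the acinar covariate. The labels do not say whether the replicate numbers pair the arrays. Same-numbered deviations correlated at -0.140 to 0.098, which shows no sign of pairing but cannot exclude it. A crossed block, added after seeing the data for the pair at -0.140, called 0 members for the transgene and 0 of all genes. That fit used only the untreated arrays, with fewer residual degrees of freedom. At an unadjusted p under 0.05 in limma it counted 4885 of all genes, against 4293 in the fit as reported. It also gave the lowest count for the transgene without PBA in the ranges below. Over all alternatives the number of all genes called ran from 0 to 2699 for the transgene without PBA (1874 as reported), 0 to 2292 for PBA in hIAPP islets (1384), 0 to 300 for PBA in wild-type islets (50), 0 to 349 for the transgene under PBA (72), 0 to 1058 for the interaction (335) and 0 to 1656 for PBA averaged (953), apart from the fit over probe sets, which counts no genes. The causes were not tested, beyond there being fewer arrays where arrays were left out. Genes near the non-specific controls, Ppara and Acacb among them, are limited by background.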

Other observations

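A list of 13 genes for other mitochondrial functions, set beside the oxidation genes, had 1 gene past the threshold. That gene was lower with the transgene without PBA, against 3.19% of all genes. It was higher with PBA in hIAPP islets, against 1.78%. Idh3a, a subunit of the isocitrate dehydrogenase of the citric acid cycle, read 9.7 and 9.7 in PBA-treated hIAPP islets, 9.1 and 9.3 in untreated hIAPP islets, 9.7 and 9.7 in PBA-treated wild-type islets, and 9.7 and 9.8 in untreated wild-type islets. By limma its change was -0.55 (SE 0.11; adjusted p = 0.0177) with the transgene without PBA, kept in 5 of the 8 fits without an array and lost without untreated hIAPP replicate 1 or either untreated wild-type array, and 0.50 (SE 0.11; adjusted p = 0.0325) with PBA in hIAPP islets, kept in none of the 8. Its direction was that of Cpt2 and opposite to that of Cpt1a.

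Acss1, the mitochondrial acetyl-CoA synthetase, was the called gene among 7 measured genes of a list of medium-chain and short-chain acyl-CoA synthetases and Glyat. It read 3.9 and 4.1 in PBA-treated hIAPP islets, 4.7 and 4.8 in untreated hIAPP islets, 4.0 and 3.8 in PBA-treated wild-type islets, and 4.0 and 3.7 in untreated wild-type islets, near the level of the non-specific controls. Its change was 0.90 (SE 0.14; adjusted p = 0.0076) with the transgene without PBA and -0.75 (SE 0.14; adjusted p = 0.0211) with PBA in hIAPP islets, calls kept in 5 and 2 of the 8 fits without an array. The shares of all genes called in these directions were 7.77% and 6.32%. Oxct1, which activates ketone bodies for oxidation, was higher with PBA averaged over genotypes by 0.38 (SE 0.08; adjusted p = 0.0483), a call lost in each of the 8 fits without an array. It read 10.3 and 10.3 in PBA-treated hIAPP islets, 9.8 and 9.9 in untreated hIAPP islets, 10.5 and 10.3 in PBA-treated wild-type islets, and 10.0 and 10.2 in untreated wild-type islets.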
